A study of Mus musculus with 2 samples.

Results

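Guanylate-binding proteins (GBPs) and immunity-related GTPases (IRGs) were examined as a group of 10 mouse genes: Gbp2, Gbp3, Gbp5, Gbp6, Irgm1, Igtp, Iigp1, Iigp2, Tgtp and Gvin1. They were found by name on the 2 arrays of the study, among 27668 named genes. A probe was taken when its gene name was a listed member or an older symbol for it, with the probe's accession deciding where a symbol had changed hands. Thus the file's Irgm probes are Irgm1, its Mpa2l probe is Gbp6, and its Gbp4 probe carries the accession of the gene now called Gbp3. All 10 genes had at least 1 probe, 15 probes in all, each printed as 1 spot, and 14 of the 15 were well above background on both arrays (here called measured). The RNA came from RAW 264.7 cells, an established line of mouse macrophages that RANKL turns into osteoclasts. The control array held RNA of cells kept at ground level, and the RCCS array RNA of cells loaded for 24 h into a rotary cell culture system, a rotating vessel used to model microgravity. The medium was DMEM with 10% FBS, and the protocol names 80 ng/ml of the cytokine RANKL over 24 h. The labels carry the same protocol text for both samples, so it is not settled whether the control cells received RANKL as well. If they did not, RANKL and RCCS differ together and cannot be told apart in any ratio below. Each condition was measured on 1 array, so no difference has a replicate check, and there is no p-value. In these cultures, fewer cells making a transcript and less of it per cell cannot be told apart.

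GBPs and IRGs are GTPases that interferons switch on to defend cells against intracellular bacteria and parasites. In mouse macrophages they gather on the membrane of pathogen vacuoles, GBPs as large dynamin-like enzymes held at membranes partly by lipid tails, and IRGs as smaller GTPases. The IRGs fall into a GKS class, named for its nucleotide-binding loop, whose members coat and break the vacuole, and a GMS class that keeps the first inactive on the cell's own membranes. Transcription of both families is driven by interferon-activated factors, among them IRF proteins, through sequences known as GAS (gamma-activated site) and ISRE (interferon-stimulated response element).

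The promoters of the members are shown first, because both element types are known from these gene families. Whether the elements have a part in the ratios given below was not tested. RefSeq's promoter table (GRCm38.p6), which gives 250 bases before and 50 after each annotated start, had entries for 7 members, 9 windows in all, since Gbp3 has 2 starts and the gene once called Tgtp is now Tgtp1 and Tgtp2. Gbp6, Gvin1 and Iigp1 had none shown here. An ISRE-type match was GAAA, 2 bases of any kind and GAAA again, on either strand, so that it reads TTTC, 2 bases and TTTC on the other. A GAS-type match was TTCNNNGAA, which reads the same on both strands. In the sequences below capitals mark these matches, written 5′ to 3′ on the strand of the gene.
Igtp, chr11:58199306-58199605, plus strand: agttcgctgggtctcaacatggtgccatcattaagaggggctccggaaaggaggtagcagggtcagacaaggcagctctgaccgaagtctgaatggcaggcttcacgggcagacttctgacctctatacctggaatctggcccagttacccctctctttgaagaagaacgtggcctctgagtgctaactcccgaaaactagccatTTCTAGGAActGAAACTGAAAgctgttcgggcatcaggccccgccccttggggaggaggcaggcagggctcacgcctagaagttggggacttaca
Iigp2 (Irgm2), chr11:58214727-58215026, plus strand: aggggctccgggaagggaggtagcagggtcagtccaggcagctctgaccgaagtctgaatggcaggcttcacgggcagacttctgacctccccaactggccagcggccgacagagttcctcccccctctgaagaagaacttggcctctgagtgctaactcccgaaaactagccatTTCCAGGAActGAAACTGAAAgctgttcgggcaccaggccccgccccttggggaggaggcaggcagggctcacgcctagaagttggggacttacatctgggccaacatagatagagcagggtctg
Tgtp1, chr11:48992197-48992496, minus strand: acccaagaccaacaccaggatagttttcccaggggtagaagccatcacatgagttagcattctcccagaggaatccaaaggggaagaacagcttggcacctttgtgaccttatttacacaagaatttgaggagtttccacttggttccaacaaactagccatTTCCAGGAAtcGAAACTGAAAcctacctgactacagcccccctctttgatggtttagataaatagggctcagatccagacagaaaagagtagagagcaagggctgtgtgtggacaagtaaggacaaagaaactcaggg
Irgm1, chr11:48871371-48871670, minus strand: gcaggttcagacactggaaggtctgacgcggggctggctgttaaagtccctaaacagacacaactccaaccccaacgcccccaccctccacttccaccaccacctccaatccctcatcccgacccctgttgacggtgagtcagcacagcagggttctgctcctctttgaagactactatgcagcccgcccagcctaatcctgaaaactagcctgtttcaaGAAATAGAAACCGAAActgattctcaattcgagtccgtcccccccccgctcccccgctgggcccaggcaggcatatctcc
Gbp3, first start, chr3:142559794-142560093, plus strand: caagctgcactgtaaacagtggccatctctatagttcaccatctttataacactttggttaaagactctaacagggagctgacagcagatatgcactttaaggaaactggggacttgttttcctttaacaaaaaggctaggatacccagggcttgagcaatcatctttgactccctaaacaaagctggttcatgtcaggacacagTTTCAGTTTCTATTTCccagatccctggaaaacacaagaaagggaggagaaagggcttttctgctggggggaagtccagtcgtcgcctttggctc
Gbp2, chr3:142620413-142620712, plus strand: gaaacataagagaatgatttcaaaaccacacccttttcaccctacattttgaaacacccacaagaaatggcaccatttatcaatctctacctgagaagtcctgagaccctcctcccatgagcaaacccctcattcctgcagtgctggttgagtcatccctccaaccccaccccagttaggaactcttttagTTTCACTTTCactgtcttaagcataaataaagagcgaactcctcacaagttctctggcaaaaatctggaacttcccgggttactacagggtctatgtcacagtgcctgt

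ISRE-type matches were present in 8 of the 9 windows, against 3.44% of all 32851 promoter windows in the table. The exception was the second start of Gbp3. GAS-type matches were present in the windows of Gbp5, Tgtp1, Tgtp2, Igtp and Irgm2, against 8.30% of all windows. In Igtp, Irgm2, Tgtp1 and Tgtp2 the matches stand in the same arrangement, a GAS-type match, 2 further bases, and an ISRE-type match. This joint pattern, on either strand, was searched after the sequences had been read, and it occurred in 5 of the 32851 windows. The fifth was that of Gm12185, which is in the list of GBP and IRG relatives below and had no probe named for it. Igtp and Irgm2 were identical at 93 of 95 bases from the GAS-type match to the end of the Igtp window (97.9%). Windows of such close relatives are not independent, so the counts set against all windows are not counts of unrelated promoters. In Irgm1 and in the first window of Gbp3, 2 overlapping ISRE-type matches and no GAS-type match were found, and in Gbp2 a single ISRE-type match. A match describes letters in this window only, and binding was not measured.

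**Figure D1:**
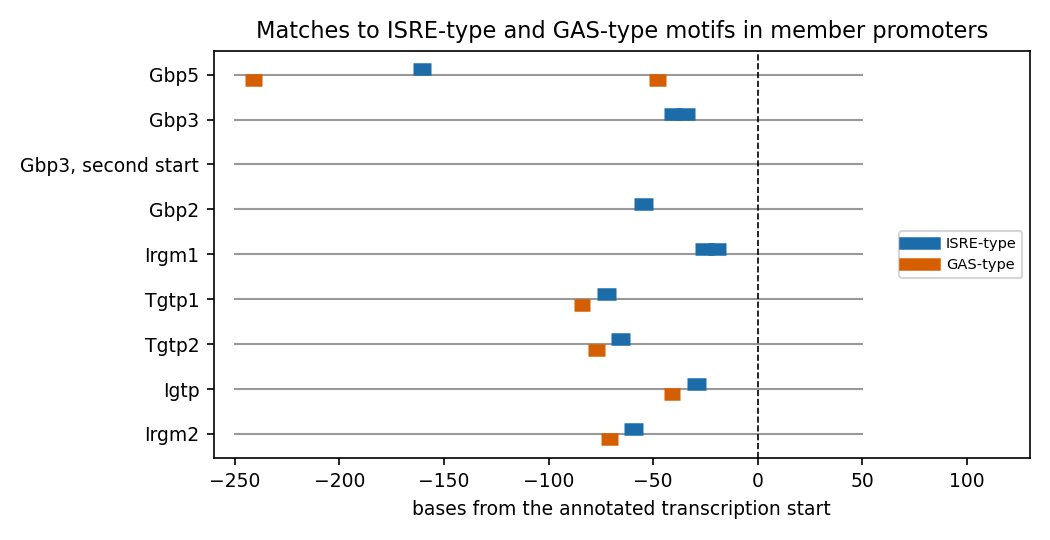
Positions of ISRE-type (blue) and GAS-type (orange) matches in the 9 promoter windows of members, in bases from the annotated transcription start (dashed line at 0). The GAS-type and ISRE-type matches lie side by side in Tgtp1, Tgtp2, Igtp and Irgm2, and all ISRE-type matches but that of Gbp5 begin at -77 or nearer to the start.

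Members were mostly lower on the RCCS array than on the control array. Values below are processed signals, a linear spot brightness after background subtraction, and log2 ratios of RCCS over control after each array had been divided by its own 75th percentile (849 and 966). Of the 14 measured probes, 9 were at least 2-fold lower, against 4.11% of the 22849 measured probes of the arrays, and 0 were at least 2-fold higher, against 4.15%. At least 4-fold lower were 5 of the 14, against 0.455%, and 13 had a log2 ratio below 0, against 60.7%. Counted by gene, with the mean of a gene's measured probes, 7 of 10 were at least 2-fold lower, against 3.78% of 15544 measured genes, and all 10 were below 0, against 61.9%. The median log2 ratio of the members' probes was -1.62, and that of all measured probes -0.13. The error given with each ratio is a 95% interval from the spot error that the scanner software assigns. It does not cover differences between cultures, RNA extractions or labellings.

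**Figure D2:**
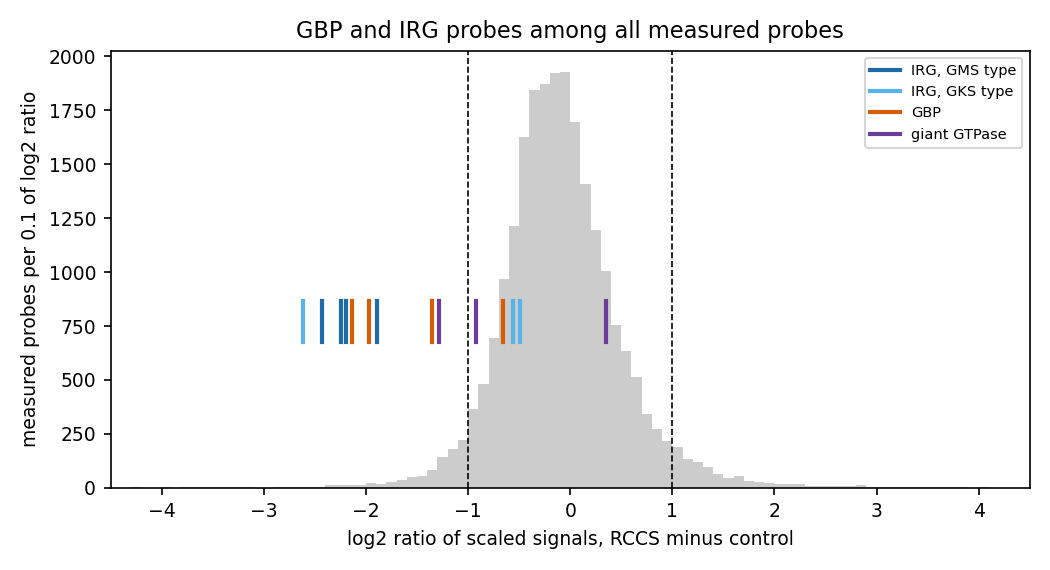
Histogram of the log2 ratio (RCCS minus control) of all 22849 measured probes in steps of 0.1, with the 14 measured member probes as coloured ticks at an arbitrary height. Dashed lines mark 2-fold; 9 ticks lie left of the lower line and 0 right of the upper one, and 1 tick, a Gvin1 probe, lies above 0.

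The GMS class of IRGs, the regulators, was lower at each measured probe. Irgm1, which in mice is needed for control of mycobacteria and for the survival of blood stem cells, had a processed signal of 19357 in the control and 4804 after RCCS at its brightest probe. Its other measured probe read 17059 and 3593. These give log2 ratios of -2.20 ± 0.40 and -2.43 ± 0.40, and the gap of 0.24 between the probes lay within their joint spot error of 0.57. Another Irgm1 probe, designed on a cDNA from neonate thymus and placed 2858 bases from the nearer of the others in the file's coordinates, stayed below that call on both arrays (5.80 and 4.92). Igtp, also known as Irgm3, went from 7999 to 1914, a log2 ratio of -2.25 ± 0.40 (4.75-fold lower). Iigp2, now named Irgm2, went from 2405 to 735, at -1.89 ± 0.40 (3.72-fold lower). The ratios of these 3 genes were closer to each other than their spot errors, with a largest gap of 0.42 between Iigp2 and Irgm1 (error 0.49). Igtp and Iigp2, whose promoters are nearly the same in the stretch described above, differed by 0.35 (error 0.57). Irgm1, whose window had no GAS-type match, differed from Igtp by 0.07 (error 0.49). Any part of the promoters in these gaps was not tested.

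The GKS class was mixed, but class and probe brightness cannot be told apart here. Each GKS probe was dimmer in the control than any measured GMS probe. Of the 5 member probes with a control signal of at least 1000, all 5 were at least 2-fold lower (median log2 ratio -2.20). Of the 9 measured member probes under 1000, 4 were (median -0.93). Tgtp, first described as a T-cell specific GTPase and now called Irgb6 as a protein, was measured by a pair of probes 586 bases apart that did not give the same answer. The brighter went from 400.5 to 74.3, a log2 ratio of -2.62 ± 0.44, with 0.175% of all measured probes lower still. With normexp it came to -1.88 (75th percentile scaling) and -1.86 (quantile), and in both settings the lower Irgm1 probe lay below it. The dimmer went from 44.1 to 35.7, at -0.49 ± 0.63, an interval that includes 0. The difference of -2.13 between the probes was larger than its spot error of 0.77, and both carry the same accession. Tgtp1 and Tgtp2 are near-identical neighbours, so either probe may report both. Iigp1, which encodes Irga6, a GKS protein that coats the vacuole of Toxoplasma, went from 125 to 96.4, at -0.56 ± 0.44. That is 1.47-fold lower, and 17.1% of all measured probes had a lower ratio.

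**Figure D3:**
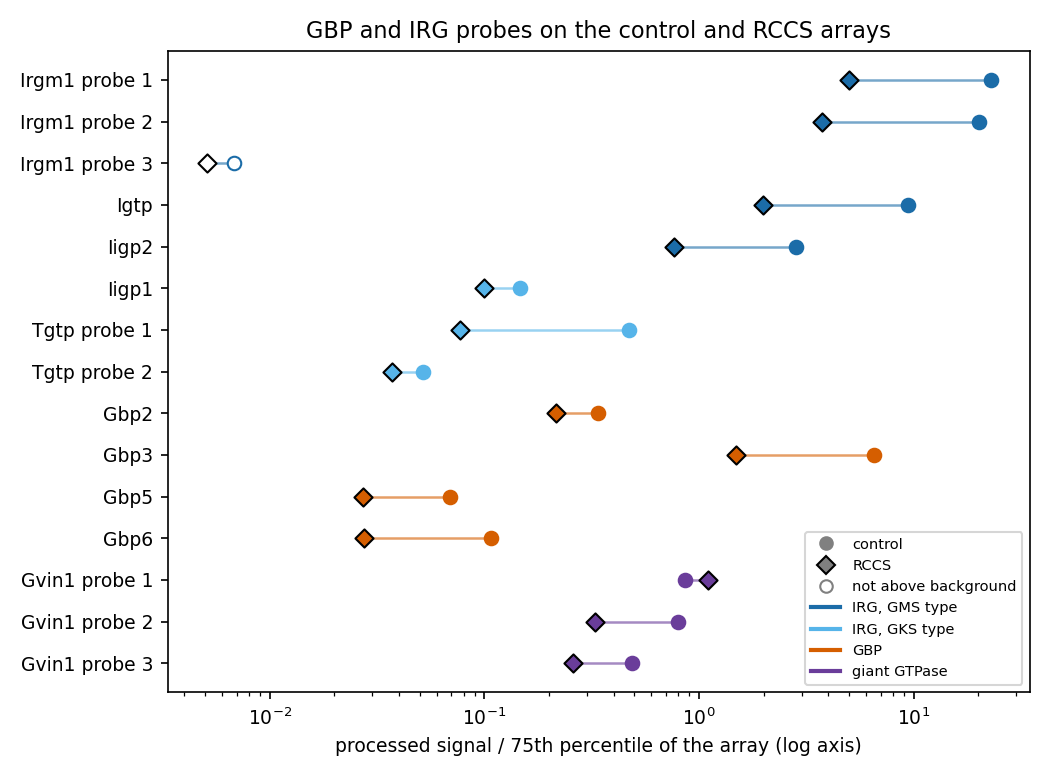
Processed signal of each of the 15 member probes divided by the 75th percentile of its array (log axis), with circles for the control array and diamonds for the RCCS array; open symbols mark a probe not well above background. Levels of different probes are not comparable with each other. For 13 of the 14 measured probes the diamond lies left of the circle, and probe 1 of Gvin1 is the exception.

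Among the GBPs, 3 of 4 were at least 2-fold lower. Gbp3 was the member of this family with the brightest probe, 5555 in the control and 1438 after RCCS, at -2.14 ± 0.40 (4.39-fold lower). Gbp6 went from 91.3 to 26.6, at -1.97 ± 0.68. Gbp5, which in mouse macrophages helps to start the NLRP3 inflammasome, went from 58.8 to 26.1, at -1.35 ± 0.68. The RCCS signals of Gbp5 and Gbp6 stand close to 21.2, the lowest signal called well above background on that array, and their ratios depend on how background is treated. With normexp background correction and quantile normalization Gbp5 came to -0.45 and Gbp6 to -0.76, each under 2-fold. Gbp2, which takes part in the attack on Toxoplasma vacuoles and on bacteria in the cytosol, went from 288 to 207, at -0.66 ± 0.41 (1.58-fold lower). The ratio of Gbp2 was 1.48 above that of Gbp3, more than their joint spot error of 0.57, and 1.30 above that of Gbp6 (error 0.79). Its distance from Gbp5, 0.69, lay within the error of 0.80.

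Gvin1 encodes a very large interferon-inducible GTPase. Its 3 probes share 1 accession and disagreed in sign. The probe with the highest control signal went from 733 to 1062, a log2 ratio of 0.35 ± 0.40. The others went from 675 to 316 and from 415 to 249, at -1.28 ± 0.40 and -0.93 ± 0.40. These lie 517 bases apart in the file's coordinates, and their ratios differed by 0.36, within the error of 0.57. The first probe lies 1480 bases from the nearer of them and differed from it by 1.63, beyond the error of 0.57. The mean over the probes, -0.62 ± 0.23, therefore stands for probes that did not move alike. Gvin1 has relatives of similar sequence, and which transcripts each probe reports was not tested.

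**Figure D4:**
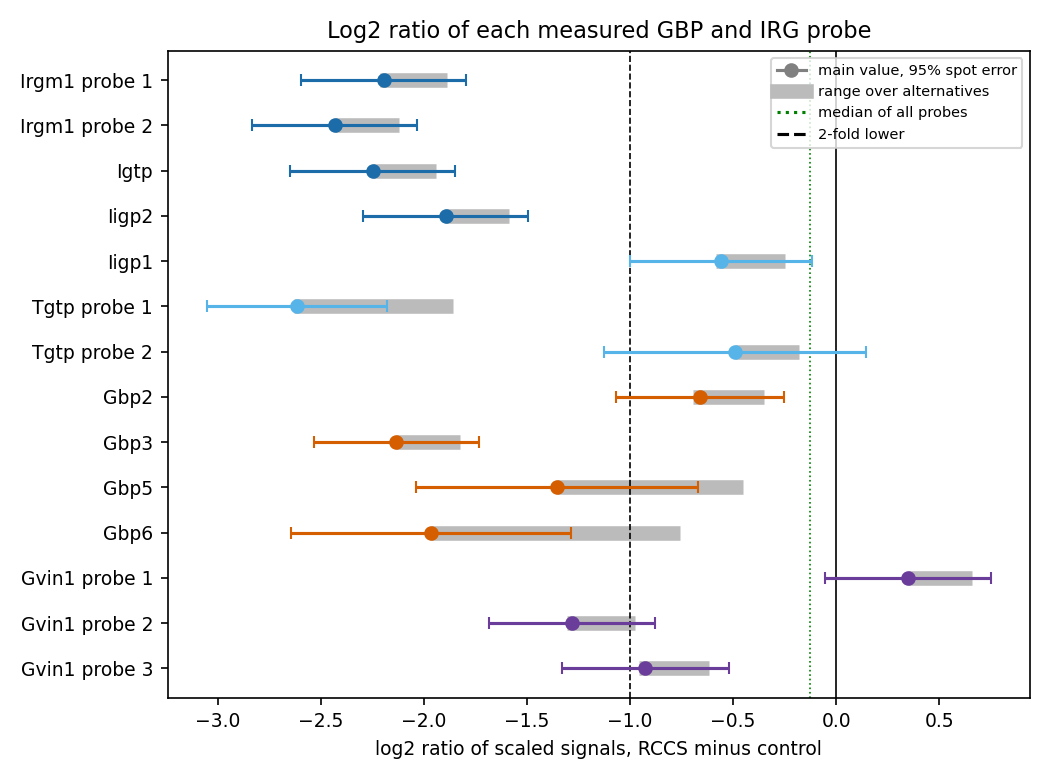
Log2 ratio (RCCS minus control) of each of the 14 measured member probes, with 95% spot error as horizontal bars and the range over the processing alternatives in grey. The solid line marks 0, the dashed line 2-fold lower and the dotted line the median of all measured probes, -0.13. The measured probes of Irgm1, Igtp, Iigp2 and Gbp3 and the brighter Tgtp probe lie left of the dashed line over the whole grey range.

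In order of their ratios the genes ran Irgm1 (-2.31), Igtp (-2.25), Gbp3 (-2.14), Gbp6 (-1.97), Iigp2 (-1.89), Tgtp (-1.55), Gbp5 (-1.35), Gbp2 (-0.66), Gvin1 (-0.62) and Iigp1 (-0.56). Neighbours in this order never differed beyond their spot errors, and the widest step was 0.69, from Gbp5 to Gbp2, with an error of 0.80.

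Relatives of the members were lower in part. Of 19 listed genes, 9 had a probe named for them here and 6 were measured, with 3 at least 2-fold lower and 0 higher, beside 3.78% and 3.92% of all measured genes. Gbp7, which lies between Gbp5 and Gbp3 on chromosome 3, went from 938 to 245, at -2.12 ± 0.40, and differed from Gbp3 by 0.01 (error 0.57). Gbp9 was at -2.10 (-1.23 with normexp and quantile normalization), with probes at -2.87 ± 0.55 and -1.33 ± 0.41. Gm5431, described in the file as similar to Tgtp, was at -1.48 ± 0.72 and dim on the RCCS array (25.4); with normexp and quantile normalization it came to -0.43. The relative 9930111J21Rik2 was at -0.44 ± 0.58. Gbp2b, the gene formerly called Gbp1, read 139 and 135, at -0.23 ± 0.42, and Irgq, an IRG relative of uncertain function, was at 0.21 ± 0.33. Gbp8 passed background in the control only (25.4), which gives a bound of 1.36-fold lower that leaves out spot error. With spot error its ratio was -2.68 ± 2.90, an interval that includes 0. Neither array measured Gbp4 or Irgc1. A probe outside the list, chosen after its values were seen, is LOC631323, which the file describes as similar to an immunity-related GTPase. It read 114 in the control and was not well above background after RCCS (12.8). This gives a bound of 6.09-fold lower that leaves out spot error, and with spot error its log2 ratio was -3.33 ± 1.16. Another probe found by such a description, LOC634650, was well above background on neither array (16.0 and 4.71).

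Set along chromosome 3 in the file's own coordinates, whose genome build is unstated in the sources used here, the GBP probes ran Gbp5, Gbp7, Gbp3, Gbp2b and Gbp2, with log2 ratios of -1.35, -2.12, -2.14, -0.23 and -0.66. Gbp2b and Gbp3, next to each other in this order, differed by 1.90 (error 0.58), while Gbp2b and Gbp2 differed by 0.43 (error 0.59). Spike-in scaling, which moves all ratios up by 0.31, put Gbp2b at 0.08. On chromosome 11 the probes of Irgm1, Gm5431 and Tgtp lay in 1 group, and those of Igtp and Iigp2 in another. Ratios of -2 or lower were found in both groups.

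Genes that carry the interferon signal to these promoters did not share 1 direction. In the list from interferon gamma receptor to promoter, 3 of 9 measured genes were at least 2-fold lower and 2 at least 2-fold higher, with a median of -0.30 (-0.13 over all genes, and 0.01 for the list with spike-in scaling). The receptor genes Ifngr1 and Ifngr2 were at -0.45 ± 0.40 and -0.30 ± 0.28, and spike-in scaling put Ifngr2 at 0.01. Irf1, an activator of GBP and IRG promoters, was at -1.12 ± 0.28 and Socs1, an inhibitor of the pathway, at -1.15 ± 0.40, and spike-in scaling put these at -0.81 and -0.84. Irf8, a macrophage IRF, was at 1.14 ± 0.28 and the kinase gene Jak2 at 1.05 ± 0.29. Under both normexp settings 1 gene of the list was at least 2-fold higher in place of 2, and Irf8 was still above 2-fold there (1.06 and 1.09). Ifng itself was detected on neither array (8.37 and 6.41, not well above background).

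In the type I interferon list 4 of 9 measured genes were at least 2-fold lower and 0 higher, with a median of -0.97. Irf7 was at -3.12, Usp18, which limits signalling at the receptor, at -2.10, and Stat2 at -1.29 (-0.98 with spike-in scaling). Ifnb1 was below the background call on both. A further list held other genes that interferon gamma induces in macrophages, and 6 of 14 measured were at least 2-fold lower and 0 higher, with a median of -0.84. Cxcl11 (-2.56), H2-Ab1 (-2.49), Cxcl10 (-2.15) and Psmb8 (-1.49) had the largest ratios there. This order depends on the processing: with normexp and quantile normalization Cxcl11 came to -1.84, H2-Ab1 to -1.33 and Cxcl10 to -1.90, and H2-Ab1 came to -3.21 with its brightest probe. All 3 counts stand beside 3.78% of genes lower and 3.92% higher over the arrays.

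A further list held large GTPases related to GBPs in structure, mostly with housekeeping roles in membrane fission and fusion. Of 13 measured, 2 were at least 2-fold lower and 0 higher, beside 3.78% and 3.92% of all genes. Both, Mx2 (-3.44) and Mx1 (-2.84), are interferon-induced antiviral proteins, and Mx1 came to -1.44 with normexp and quantile normalization. Dnm1, which encodes a dynamin of membrane fission, passed background after RCCS only (8.99 and 117, at least 4.26-fold higher). Next came Ehd1 at -0.74 and Atl1, an atlastin, at -0.62, the latter turning to 0.79 when its dim probes were counted too. The median was -0.42.

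Genes whose products work with GBPs and IRGs had medians slightly above 0, beside -0.13 over all measured genes. Spike-in scaling, which moves all ratios up by 0.31, put the medians of these lists, in the order given here, at 0.35, 0.44 and 0.36. Of 13 genes of the machinery that directs them to vacuoles, including the ATG conjugation proteins, 0 were at least 2-fold lower or higher, with a median of 0.04, and with 3.78% and 3.92% of all genes called a count of 0 in 13 is near the background. Sqstm1, an autophagy receptor, was at 0.92 and passed 2-fold higher under 5 of 12 alternatives (up to 1.29 with loess scaling). Atg7 and Map1lc3a were at 0.67 each, and Trim21, a ubiquitin ligase, at -0.87. Among 9 measured inflammasome genes 1 was at least 2-fold higher, Nlrc4 (1.68 ± 0.61, from 36.7 to 134, and 0.73 with normexp and 75th percentile scaling), and 0 lower, beside 3.92% and 3.78% of all genes. Casp1 was at 0.78, but at 1.09 with spike-in and 1.02 with loess scaling, where 2 genes of the list were at least 2-fold higher. Gsdmd, the pore-forming gasdermin, was at -0.67 and Il18 at -0.35, and the median of the inflammasome list was 0.13. Aim2, a DNA sensor, passed background after RCCS only (57.9, at least 2.11-fold higher). Prenylation genes supply and attach the lipid tails of some GBPs. Of 7 measured, 1 was at least 2-fold lower and 0 higher, beside 3.78% and 3.92% of all genes. This was Fdps at -1.12 (-0.81 with normexp and quantile normalization), which was at least 2-fold lower under 6 of 12 alternatives. Fntb, Ggps1 and Fnta were at -0.50, 0.27 and -0.19, and spike-in scaling turned Fnta to 0.12. The median of that list was 0.05.

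**Figure D5:**
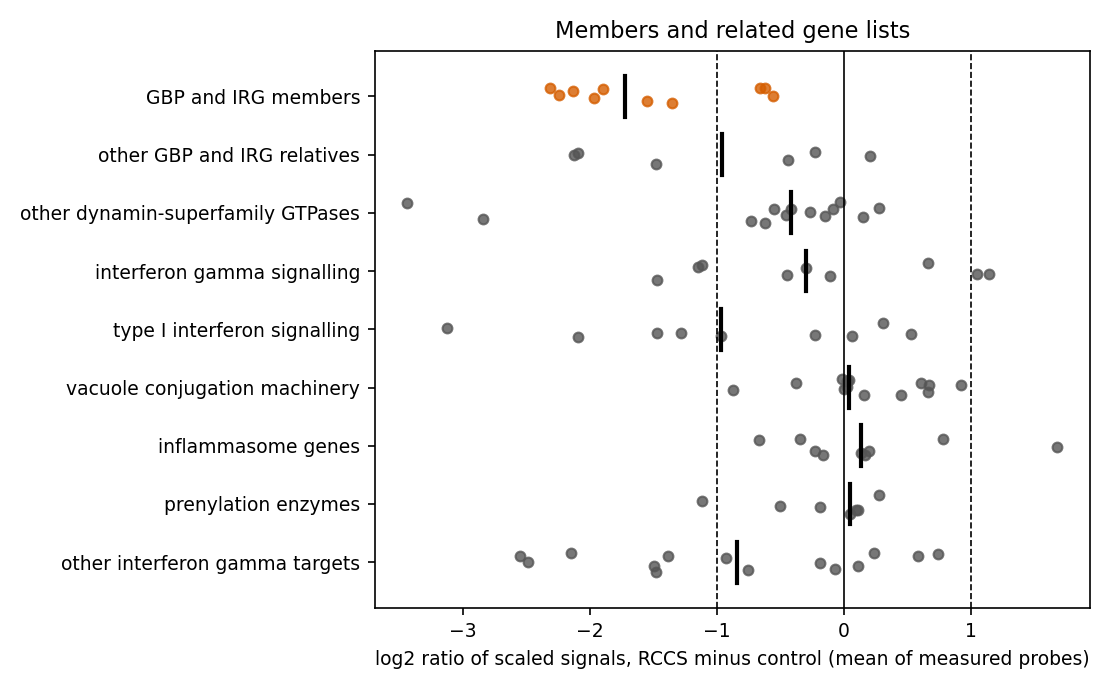
Log2 ratio (RCCS minus control) per gene, as the mean of its measured probes, for the 10 members (orange) and 8 related gene lists (grey), with a black bar at each median. The members' median is -1.72, that of type I interferon signalling -0.97 and that of the vacuole conjugation machinery 0.04; dashed lines mark 2-fold.

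Of all 41171 probes, 57.5% passed the background call in the control and 60.6% after RCCS, no spot of a member was saturated or called an outlier, and the log2 signals of measured probes correlated across probes with a Pearson r of 0.978. Probes are not independent replicates. Probes printed repeatedly and measured on at least 5 spots had a median SD of their log2 ratio of 0.04 over 117 bright and 0.26 over 33 dim probes. All 8 macrophage markers were detected on both arrays, with summed signals of 932 and 973 times the 75th percentile on the control and RCCS arrays. Of 4 T-cell markers, checked because of the name of Tgtp, 3 were detected on each array and Cd3d on neither, and they summed to 1.04 and 0.755 times it. NK-cell and endothelial markers summed to 0.063 and 0.056, and to 0.049 and 0.042. Of 4 fibroblast markers, 1 was detected in the control and 3 after RCCS, and their sum was higher after RCCS (0.097 and 0.557). Of 4 B-cell markers, 3 were detected in the control and 2 after RCCS, with sums of 0.263 and 0.264. Of 6 osteoclast markers, 5 were detected in the control and 6 after RCCS, and they summed to 12.7 and 15.3. The part of any of these in the ratios was not tested.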

How the data were processed

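Control and RCCS RNA of RAW 264.7 cells was hybridised to 1 Agilent mouse array each, in 1 colour. Spot intensities are the output of Feature Extraction 9.5.3.1, per the file headers: background was subtracted, a surface trend removed, and nothing was scaled between arrays. The authors also deposited a ratio table, whose scale, centring and direction are unstated. Compared with the scanner signals, its values equal them divided by 849 (control) and 964 (RCCS), close to the 75th percentiles, with a lowest value of 0.01 and a median of 0.06 in each column, so it was used as an alternative only.

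Flagged outlier spots were dropped, spots of a probe averaged, and each array divided by its 75th percentile over 41171 non-control probes. A probe counted as measured where, on each array, 50% or more of its spots were well above background. Log2 ratios are RCCS minus control. Names came from accessions matched to the RefSeq table (22950 probes, GRCm38.p6) and otherwise from the file or its synonyms. A probe above background on 1 array has a bound against the higher of its own dim signal and the lowest signal called above background there, after scaling. Such a bound leaves out spot error. Errors are 1.96 times the software's spot error. Differences between probes or genes carry the 2 errors combined. Where a gene has several measured probes, the text gives the signals of the one brightest on the control array.

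All 10 members and their probes, every measured relative, and up to 4 genes per further list with the largest absolute ratio are named, with Irf1, Ifngr1, Ifngr2, Ifng and Ifnb1 besides. A gene of these lists that the rule names is counted but not reported here. Jak2, Aim2, Dnm1, Gbp4, Gbp8, Irgc1, LOC631323 and LOC634650 were named after their values were seen. Members and lists were chosen with earlier results of these data known. With 1 array per group no test was possible. The functions were tested on simulated arrays. Alternatives were median, measured-probe, spike-in, quantile and loess scaling (span 0.3), normexp (offset 50), the deposited table, other filters, thresholds and the brightest probe. Python 3.11.15, pandas 2.3.3, statsmodels 0.14.6, R 4.3.3 and limma 3.58.1 were used.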

Additional observations from a re-analysis of the deposited data

How the results depend on the processing

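No alternative turned the direction of a member gene but 1: Gvin1 came to 0.35 when its brightest probe stood for the gene. The count of member probes at least 2-fold lower was 9 in the main setting and 7 to 9 over the alternatives that kept this threshold. The count of genes was 7, and 5 to 7 over them. With a 1.5-fold threshold 11 probes and 9 genes were lower, where 15.7% of all measured probes were. With a 3-fold threshold 7 probes and 5 genes were lower, against 0.945% of all measured probes. In each setting 0 member probes were higher by the threshold used. The median log2 ratio of the measured member probes, -1.62, moved to -0.99 with normexp and 75th percentile scaling and to -0.96 with normexp and quantile normalization, where 7 of 14 probes were at least 2-fold lower, against 2.33% and 1.69% of all. It was -1.32 with spike-in scaling, where the median of all probes shifted by 0.31 and 8 probes were at least 2-fold lower. In that setting 387 probes of the whole arrays were at least 2-fold lower and 1816 higher, in place of 938 and 948. With normexp and 75th percentile scaling these were 532 and 553, and with dim probes kept in 2736 and 2569. The normexp and quantile setting gave 387 lower. The median of all probes shifted by 0.14 with scaling on measured probes and by 0.13 with loess. A single scaling factor moves all probes alike, so it leaves the distance of the members' median from that of all probes as it was. Irgm1, Igtp, Gbp3, Iigp2 and Tgtp stayed at least 2-fold lower under all 12 alternatives run for them. For Tgtp this holds for the gene value only, since its dimmer probe was under 2-fold in all 10 alternatives run for it. Gbp5 and Gbp6 fell short of 2-fold under both normexp settings, and had no value with a signal of at least 100. The median of the interferon gamma signalling list turned above 0 (0.01) with spike-in scaling only. No paired analysis was possible because each group has 1 array, and for the same reason no replicate could be left out. Gbp5, Gbp6 and the second Tgtp probe were dim and each on 1 spot, and their spot errors were the widest among the measured member probes.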
